A study of Mus musculus with 12 samples.

Results

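Long intergenic RNAs (lincRNAs) are spliced, polyadenylated transcripts from loci outside protein-coding genes, and they are for the most part expressed at lower levels and less conserved in sequence than mRNAs. The set described here holds the 30 lincRNA genes of the mouse autosomes that averaged at least 100 reads over 12 RNA-seq libraries of mouse embryonic fibroblasts (MEFs), out of 1012 autosomal lincRNA genes and 37991 gene identifiers counted. Genes were taken as lincRNAs by their GENCODE M21 biotype, matched by Ensembl identifier, and the well-known nuclear and imprinted RNAs Neat1, Malat1, Meg3, H19 and Kcnq1ot1 were left out by name. The members were thus chosen by 1 measured value, their mean read count, and no comparison between groups was used. Of the 1012 genes, 466 had no read in any library and 906 averaged fewer than 10 reads. The members closest to the minimum were 5033430I15Rik, A530017D24Rik and Gm16001 with mean counts of 112.8, 113.8 and 115.7, and the lincRNAs just below it were Gm42743, 3222401L13Rik and Gm20707 with 94.8, 86.8 and 86.0.

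The libraries came from primary MEFs at passage 3, prepared from 13.5-day embryos of the FVB strain. Wild-type (WT) cells were compared with cells homozygous for E2f1 3KR, a knock-in allele in which the acetylated lysines of the transcription factor E2F1 are replaced by arginine. Cells of each genotype were left untreated or received neocarzinostatin (NCS), a radiomimetic drug that breaks DNA, at 250 ng/ml for 3 h, giving 4 groups of 3 libraries. The knock-in is present in all cells of the embryo, the labels do not say how many embryos or litters stand behind the replicates, and p-values therefore measure the spread between these libraries only.

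Some long non-coding RNAs act on a neighbouring gene, some bind proteins or microRNAs, and others carry a small RNA in an intron and are spliced mainly to release it. Hosts of small nucleolar RNAs (snoRNAs), which guide the modification of ribosomal RNA, tend to have short, poorly conserved exons, and their spliced products are often degraded by nonsense-mediated decay. In fibroblasts given DNA breaks, p53 induces several non-coding RNAs, of which lincRNA-p21 (Trp53cor1) is the best studied. Trp53cor1 averaged 38.8 reads here, which is below the minimum, and its log2 fold change after NCS was −0.12 (SE 0.24) in wild-type and −0.34 (SE 0.25) in 3KR MEFs, with adjusted p of 0.77 and 0.33 in the edgeR quasi-likelihood test.

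3 members have sequence features that show what they are known for, and these are printed because the text returns to their levels. 1700020I14Rik, known as Cyrano, contains a deeply conserved site that pairs with almost the whole of the microRNA miR-7 and directs its degradation. A search of its longest GENCODE transcript found this site at bases 2952 to 2958 for the seed match, with 13 further pairs in a row to bases 11 to 23 of the microRNA. The capitals in the site mark bases that pair with miR-7a-5p, and the capitals in the microRNA its seed (bases 2 to 8).
1700020I14Rik site (GENCODE M21 transcript): taagaACAACAAAATCACcaatGTCTTCCa
mmu-miR-7a-5p (RefSeq): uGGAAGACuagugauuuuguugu

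Mir17hg is the host transcript of the miR-17-92 cluster, a set of growth-promoting microRNAs that E2F and MYC factors are known to activate and of which several members target E2f1 mRNA. The arms of this cluster on chr14:115043684-115044496 (GRCm38, plus strand) fall into groups by seed, shown in capitals, with miR-17 and miR-20a sharing AAAGUGC and miR-19a and miR-19b sharing GUGCAAA.
mmu-miR-17-5p: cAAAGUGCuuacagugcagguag
mmu-miR-20a-5p: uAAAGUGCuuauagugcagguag
mmu-miR-18a-5p: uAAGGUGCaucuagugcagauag
mmu-miR-19a-3p: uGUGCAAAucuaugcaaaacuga
mmu-miR-19b-3p: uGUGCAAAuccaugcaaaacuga
mmu-miR-92a-3p: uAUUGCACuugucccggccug

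Snhg12, on chr4:132308623-132311024 (GRCm38, plus strand), is a snoRNA host that contains Snora16a, Snora44, Snora61 and Snord99. Snord99 is a box C/D snoRNA of 74 bases, and the capitals mark its C box and D box.
Snord99 (GENCODE M21): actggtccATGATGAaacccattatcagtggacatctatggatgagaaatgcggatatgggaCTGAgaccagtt

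The lincRNA label was checked against RefSeq, which held an entry of the same symbol for 22 of the 30 members. RefSeq listed 18 of these as lncRNA, 3 as protein-coding and 1 as a transcribed pseudogene. The protein-coding entries were Zfp469, which belongs to a zinc finger gene linked in humans to fragile corneas, 1810058I24Rik, also called Stmp1, which encodes a short mitochondrial protein, and Tmem250-ps. The pseudogene was 4632415L05Rik. These 4 are members by the rule and are described with the others, but the label goes against RefSeq for them. Of the 30 loci, 5 overlapped another annotated gene and 3 shared exon sequence with it. Small RNA genes such as snoRNAs and microRNAs, unconfirmed (TEC) genes and genes absent from the count files were left out of this count. Gm38399 shared exon sequence with Nav1 and Gm14005 with Gm14012 on the same strand, where reads cannot be told apart by strand. Gm14005 also shared it with Gm14009, and Tmem250-ps with 1810012K08Rik, on the other strand, where reads cannot be told apart if the counting ignored strand, which the sources used here do not state. Much of Gm12840 (52.6% of its longest transcript) and 23.1% of 2410018L13Rik were near-identical to other genes, so their counts are uncertain.

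The libraries held 33203757 to 45279321 counted reads. Both wild-type replicate 3 libraries stood apart. Set against the other libraries of their group, their counts gave a mean chi-square of 7.57 to 9.37 over genes, and all other replicate pairs gave 2.03 to 2.34. Counts resting on them are given with and without them. The p53 targets Cdkn1a and Pmaip1 rose after NCS by 1.18 and 2.05 in wild-type and by 1.34 and 2.35 in 3KR MEFs on the log2 scale. Of the 15 p53 targets listed, 13 rose in wild-type and 14 in 3KR MEFs, and 13 were lower in untreated 3KR than in untreated wild-type cells, Cdkn1a by 0.83 and Pmaip1 by 2.12 on the log2 scale. E2f1 mRNA did not differ detectably between genotypes (log2 fold change −0.03 untreated and −0.02 after NCS, SE 0.06), and because the allele changes codons only, this does not test the labels. All 12 fibroblast markers were tested, and their summed level was 43308 to 46516 CPM in wild-type and 50980 to 53094 CPM in 3KR libraries. Genotype moved together with several other features. Xist was at 30590 to 35635 normalized reads in the 3KR and at 32.3 to 62.5 in the wild-type libraries, and Ddx3y was at 7.0 to 16.2 and 5370 to 5822, so that sex and genotype cannot be told apart. The 14 macrophage markers summed to 242 to 267 CPM in 3KR and 133 to 164 CPM in wild-type libraries, and the 10 Schwann and neural crest markers to 45.4 to 52.3 and 231 to 241 CPM, with no listed marker of either type at 0. The 7 muscle markers summed to 40.9 to 43.7 CPM in 3KR and 119.6 to 125.9 CPM in wild-type, the 6 neuron markers to 119.4 to 126.1 and 154 to 172 CPM, and the 8 endothelial markers to 18.8 to 31.5 and 10.4 to 11.2 CPM. In untreated 3KR cells Des was at −1.53, Stmn2 at −1.10, Tubb3 at −0.91 and Erg at 2.48 on the log2 scale against wild-type, and all 4 passed the test. Others in these lists went the other way, with Emcn (endothelial) at −2.44 and Map2 (neuron) at 0.24, both called. Of the 6 endothelial markers tested, 1 was higher and 1 lower in untreated 3KR cells. For the 4 neuron markers tested these counts were 1 and 2, and for the 4 muscle markers 0 and 2. The part of these differences in the genotype results below was not tested. In bulk RNA, a change in the share of cells that make an RNA and a change in its amount per cell cannot be told apart.

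The 30 members together made up 0.0527% to 0.0589% of the counted reads, and 1700020I14Rik alone held 24.4% of that. Per kilobase of exon, which allows genes to be compared, their levels covered a wide range, from 0.502 CPM per kb for 1700001L05Rik to 33.7 CPM per kb for Zfp469, with a median of 2.94. The median over the 14794 tested genes with a known length was 4.29 CPM per kb, and 10 of the 30 members lay above it. The members were chosen by read count, and 11458 of the 15327 tested genes averaged at least 100 reads. Their place against this median is therefore partly set by the rule. The 10 members with the highest level per kb were Zfp469, 1810058I24Rik (20.9), Epb41l4aos (19.6), Snhg12 (18.5), 1700020I14Rik (16.3), Tmem250-ps (14.1), Gm14230 (8.06), Gm53 (6.19), Gm12840 (6.15) and Gm14005 (4.70). The leading positions were thus held by the entries that RefSeq lists as coding, by the snoRNA hosts Epb41l4aos and Snhg12 and by Cyrano. Some neighbours in this order could not be separated by their spread, since Epb41l4aos was at 18.7 ± 1.3 and Snhg12 at 15.8 ± 2.0 CPM per kb in NCS-treated wild-type and at 22.6 ± 3.0 and 20.8 ± 0.60 in NCS-treated 3KR MEFs (SD, n = 3). Between replicates, the median coefficient of variation of the members was 4.88% to 8.10% in the 4 groups, against 4.31% to 6.12% over all tested genes. The latter were not matched to the members in read count.

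**Figure D1:**
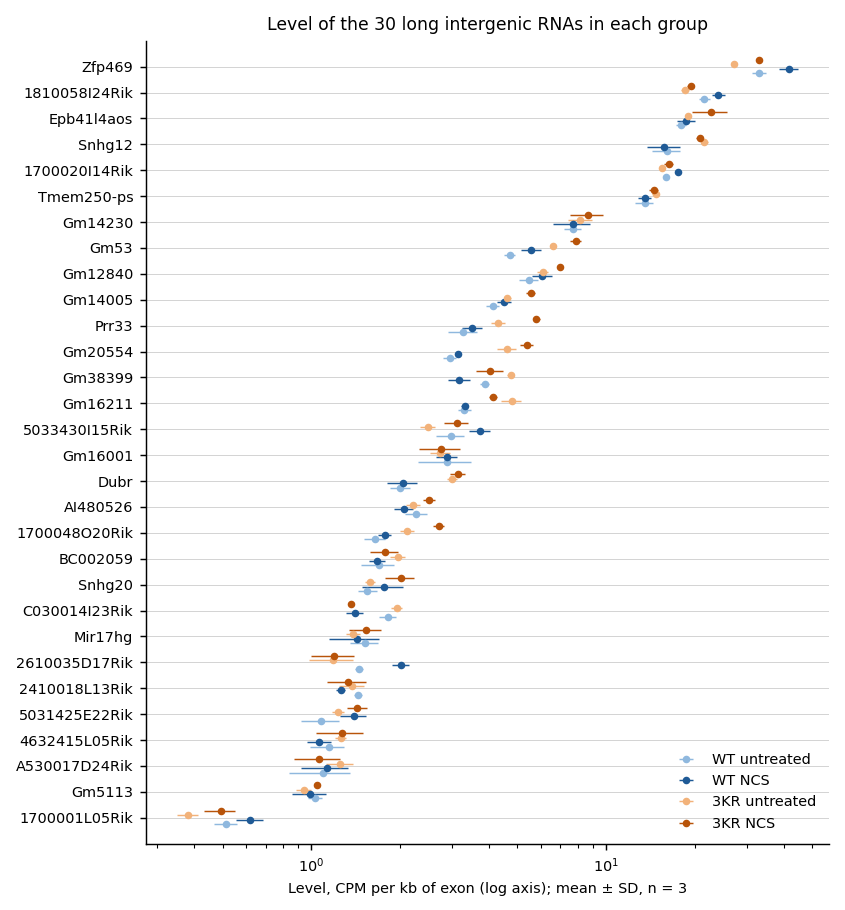
Level of each of the 30 lincRNAs in CPM per kb of exon on a log axis, with points for the group mean and whiskers for the SD (n = 3 libraries). Zfp469 lies highest at 27.1 to 41.8 CPM per kb by group, 1700001L05Rik lowest at 0.381 to 0.621, and for most members the 4 groups lie close together against the distance between members.

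All 30 members passed the filter on low counts. In the comparisons between 2 groups, 19 of them (63.3%) changed at least once, against 67.4% of all genes tested and 76.1% of those with a mean of at least 100 reads, and 11 did not pass the test in any. The 11 were Tmem250-ps, Gm14230, 2410018L13Rik, Mir17hg, Gm5113, 4632415L05Rik, Gm12840, BC002059, Gm16001, A530017D24Rik and 5033430I15Rik. Tmem250-ps was close to the threshold between untreated genotypes (log2 fold change 0.13, SE 0.05, adjusted p = 0.052) and passed with DESeq2 size factors (adjusted p = 0.0431), with no filter on low counts (0.0334) and without WT untreated replicate 3 (0.00694). No member had an absolute log2 fold change over 1 in these 4 comparisons, whereas 1.78% to 9.21% of all tested genes had. The latter include genes with few reads. The median absolute change of the members was 0.12 and 0.20 for NCS in wild-type and 3KR, and 0.19 and 0.27 between genotypes untreated and after NCS. Over genes with a mean of at least 100 reads it was 0.10, 0.11, 0.14 and 0.15 in the same order. These genes were not matched to the members above that minimum. Depth was limiting for the weaker members, as the 95% confidence interval of the NCS change of Gm16001 in wild-type MEFs ran from −0.31 to 0.32 on the log2 scale and that of 1700020I14Rik from 0.07 to 0.21.

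**Figure D2:**
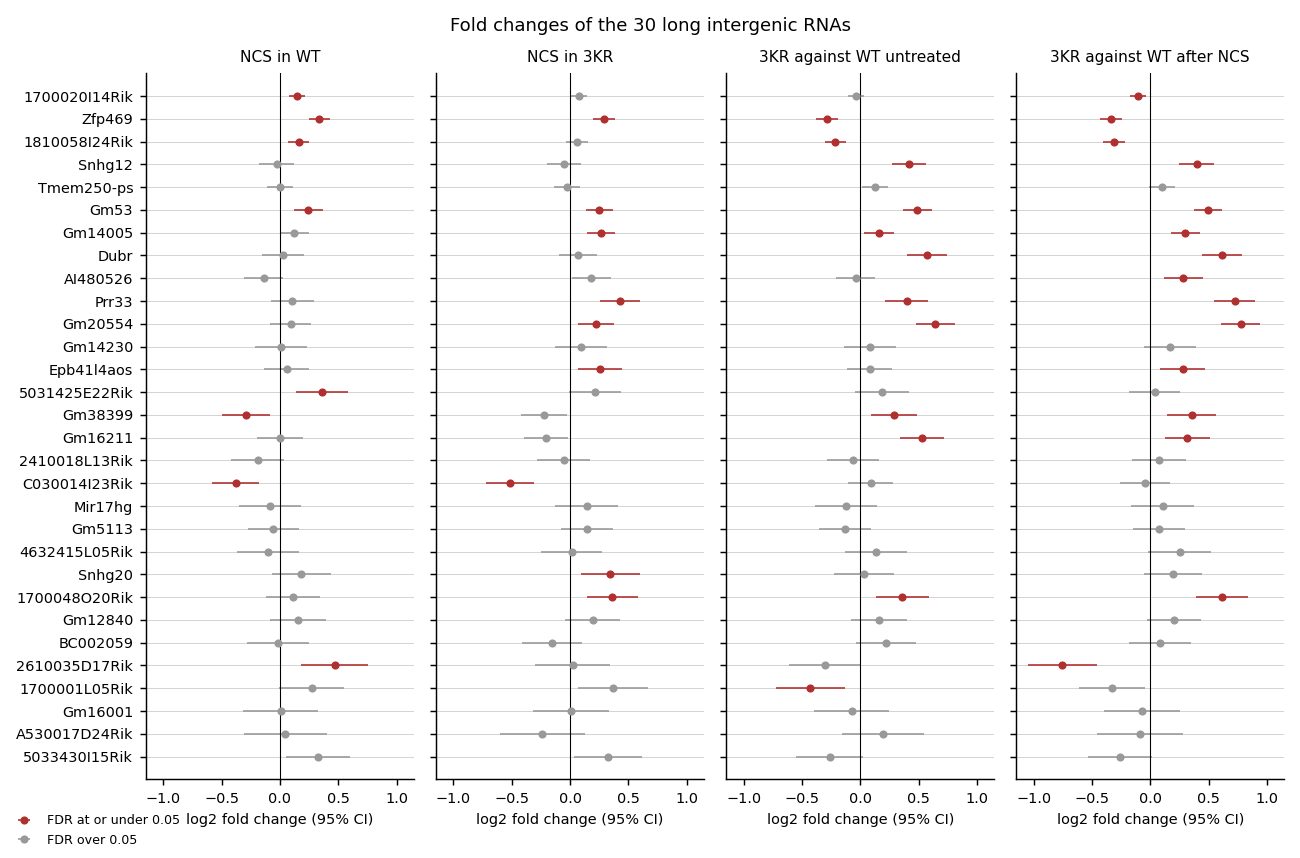
Log2 fold change of each of the 30 lincRNAs with its 95% confidence interval in the 4 comparisons, ordered by mean count from the top, with an adjusted p at or under 0.05 in red. Most points lie between −0.5 and 0.5, and the largest values are 0.77 for Gm20554 and −0.75 for 2610035D17Rik between genotypes after NCS.

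The response to DNA breaks was examined first in wild-type MEFs. After 3 h of NCS, 8 of the 30 lincRNAs changed, 6 up and 2 down, against 26.7% of all genes tested and 33.9% of genes with a mean of at least 100 reads. The largest rises were in 2610035D17Rik, 5031425E22Rik and Zfp469, and the falls were in C030014I23Rik and Gm38399. Upward calls made up 20% of the members and 14.3% of all genes tested, and downward calls 6.67% and 12.4%. The median log2 fold change was 0.05 over the members and 0.01 over all genes. The median absolute change was 0.12 over the members, 0.13 over all genes and 0.10 over genes with a mean of at least 100 reads.

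Zfp469 was at 3737, 3790 and 4117 normalized reads in the untreated and at 4629, 4773 and 5355 in the NCS-treated wild-type libraries. All treated libraries lay above all untreated libraries, and the log2 fold change was 0.34 (SE 0.04, adjusted p = 3.33e-06). 2610035D17Rik, a lincRNA spread over 158 kb of chromosome 11 (chr11:113043895-113201838, GRCm38, minus strand), was at 113, 119 and 120 reads without and 151, 167 and 171 reads with NCS. The groups did not overlap, and its rise of 0.47 (SE 0.14, adjusted p = 0.0135) was the largest of the set in wild-type cells. Cyrano (chr2:119594297-119607502, plus strand) was at 4937, 5183 and 5001 reads without and 5533, 5614 and 5580 with NCS, a rise of 0.14 (SE 0.03, adjusted p = 0.00224), which its depth made detectable although it is small. 1810058I24Rik rose by 0.16 (SE 0.04, adjusted p = 0.00839), from a mean of 2283 ± 94.0 to 2555 ± 118 reads (SD, n = 3).

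C030014I23Rik, on chr9:44468344-44482180 (plus strand), was the most lowered lincRNA in both genotypes. In wild-type cells it was at 247, 217 and 226 reads without and at 185, 164 and 185 with NCS, and in 3KR cells at 240, 258 and 242 without and at 174, 169 and 173 with NCS. The treated libraries lay below the untreated ones in both cases, and it fell by 0.38 (SE 0.10, adjusted p = 0.0051) and by 0.52 (SE 0.10, adjusted p = 0.000287) on the log2 scale. Gm38399 fell by 0.29 in wild-type MEFs (SE 0.10, adjusted p = 0.033), but its adjusted p was 0.0955 without WT untreated replicate 1, 0.061 without WT untreated replicate 3, 0.0873 without WT NCS replicate 2 and 0.106 without WT NCS replicate 3. 5031425E22Rik rose by 0.36 (SE 0.11, adjusted p = 0.016), from 231, 228 and 176 to 247, 268 and 305 reads, and this rested on replicate 3, since its rise was 0.25 with an adjusted p of 0.0838 without WT untreated replicate 3 and 0.27 with 0.0857 without WT NCS replicate 3. The adjusted p of 1810058I24Rik was 0.0549 without WT NCS replicate 1. With both wild-type replicate 3 libraries left out, 7 lincRNAs passed in wild-type MEFs, beside 32.7% of all genes tested in that fit, with 5031425E22Rik (adjusted p = 0.324) and Gm38399 (adjusted p = 0.154) lost and AI480526 gained.

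In 3KR MEFs, 9 of the 30 lincRNAs changed after NCS, 8 up and 1 down, against 30.8% of all genes tested and 38.4% of those with a mean of at least 100 reads. The upward share was 26.7% of the members against 15.8% of all genes tested, the downward share was 3.33% against 15%, and the median log2 fold change was 0.12 over the members and −0.00078 over all genes. This median was not particular to the members. Among genes with a mean of at least 100 reads it was 0.11 over 29 genes of the GENCODE antisense biotype and 0.12 over 44 processed transcripts. Over 11151 protein-coding genes it was −0.0016. Prr33 had the largest rise, followed by 1700048O20Rik, Snhg20, Zfp469, Gm14005, Epb41l4aos, Gm53 and Gm20554. Prr33, on chr7:142491074-142506771 (minus strand), was at 396, 400 and 363 reads without and at 524, 532 and 505 with NCS. The groups did not overlap and it rose by 0.43 (SE 0.08, adjusted p = 0.000313), whereas its values in wild-type MEFs were 254, 311 and 314 without and 300.3, 300 and 345 with NCS, with overlapping groups and a log2 fold change of 0.11 (SE 0.09, adjusted p = 0.429). Zfp469 rose by 0.29 (SE 0.05, adjusted p = 2.89e-05), from 3107, 3255 and 3217 to 3909, 3884 and 3897 reads.

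Gm53 lies in the HoxB cluster between Hoxb13 and Hoxb9 (chr11:96251105-96264868, plus strand), a region transcribed in posterior parts of the embryo. It rose in both genotypes by nearly the same amount, by 0.24 (SE 0.06, adjusted p = 0.00407) in wild-type and 0.25 (SE 0.06, adjusted p = 0.00164) in 3KR MEFs. Gm14005, known as Morrbid, an RNA that restrains the pro-apoptotic gene Bcl2l11 in myeloid cells, spans 324 kb of chromosome 2 and ends 15.8 kb from that gene. In 3KR MEFs it was at 697, 722 and 738 reads without and at 849, 840 and 900 with NCS, a rise of 0.26 (SE 0.06, adjusted p = 0.00139), and in wild-type MEFs its log2 fold change was 0.12 (SE 0.06, adjusted p = 0.141). Bcl2l11, named because of this role and after its values were seen, rose by 0.36 (SE 0.05) in wild-type and by 0.26 (SE 0.06) in 3KR MEFs.

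4 of the 9 calls in 3KR MEFs did not hold in every set of libraries. Without 3KR untreated replicate 3, 5 members passed (16.7% of the 30), and Gm20554 (adjusted p = 0.0549), Epb41l4aos (0.0894), Snhg20 (0.0562) and 1700048O20Rik (0.0545) were lost. The share over all genes in that fit is not given, so the lower count cannot be read as particular to the members. Epb41l4aos had adjusted p of 0.0607 to 0.206 in 5 of the 6 fits that leave out a 3KR library and Snhg20 had 0.0562 to 0.178 in 5, while Gm20554 had 0.0505 to 0.15 in 4. Leaving out 3KR NCS replicate 1 also took 1700048O20Rik to 0.0512. In the Wald test of DESeq2, Gm20554 and Epb41l4aos had adjusted p of 0.0508 and 0.0505. With both wild-type replicate 3 libraries left out, which changes the shared dispersion, 11 members passed, beside 39.7% of all genes tested.

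**Figure D3:**
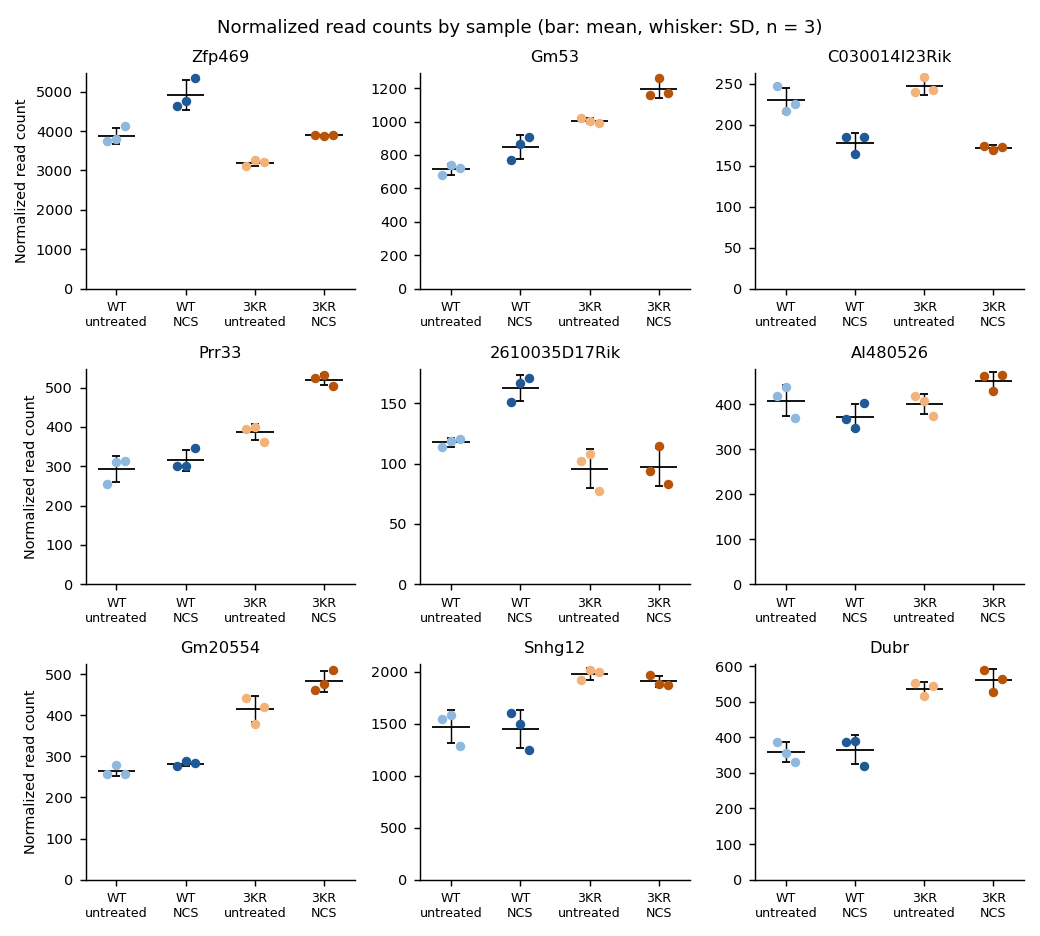
Normalized read counts of 9 of the lincRNAs in each of the 12 libraries, with horizontal bars for the group mean and whiskers for the SD (n = 3). Zfp469 and Gm53 are higher with NCS in both genotypes, C030014I23Rik is lower with NCS in both, and Gm20554, Snhg12 and Dubr are separated by genotype.

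Responses in the genotypes share no library and can be set side by side. Zfp469, Gm53 and C030014I23Rik passed in both, in the same direction, which is 37.5% of the 8 called in wild-type and 33.3% of the 9 called in 3KR MEFs, beside 63.9% and 55.3% over all genes tested. Over the 30 members, 23 had the same sign in both genotypes, and the fold changes correlated with r = 0.63 (Spearman 0.64), beside r = 0.45 over all 15327 tested genes, as a description over genes that share the normalization of each library. The 5 lincRNAs called in wild-type only and the 6 called in 3KR only are not thereby shown to differ, so the difference in response was tested directly. No member passed that test in edgeR or in the Wald test of DESeq2, against 3.73% of all genes tested and 4.89% of those with a mean of at least 100 reads, and 3 had an unadjusted p under 0.05. The lowest p values for a more positive response in 3KR were those of AI480526 (difference 0.32, SE 0.11, adjusted p = 0.13), Prr33 (0.32, SE 0.12, adjusted p = 0.164) and Gm14005 (0.14, SE 0.08, adjusted p = 0.44). For a more negative response they were those of 2610035D17Rik (−0.45, SE 0.21, adjusted p = 0.282), 1810058I24Rik (−0.10, SE 0.06, adjusted p = 0.457) and Gm16211 (−0.21, SE 0.13, adjusted p = 0.46). The 95% confidence intervals of the 30 differences reached from −0.88 to 0.60 on the log2 scale, so a missed threshold does not show equal responses.

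AI480526 passed the test of the difference in response in some sets of libraries. It was at 418, 437 and 369 reads without and 366, 347 and 403 with NCS in wild-type cells, and at 418, 407 and 375 without and 462, 428 and 465 with NCS in 3KR cells. Among the wild-type libraries, replicate 3 was the lowest without and the highest with NCS. Without WT untreated replicate 3 its difference in response was 0.38 with an adjusted p of 0.0346, and without both wild-type replicate 3 libraries it was 0.44 with 0.00646, when 1810058I24Rik also passed (−0.17, adjusted p = 0.0197) and 11.8% of all genes tested did.

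More of these RNAs, as of all genes tested, passed the test between genotypes than after NCS. In untreated cells, 12 of the 30 lincRNAs differed between 3KR and wild-type MEFs, 9 higher and 3 lower in 3KR, against 45.7% of all genes tested and 51.3% of those with a mean of at least 100 reads. Upward calls made up 30% of the members and 22.1% of all genes, and downward calls 10% and 23.6%. After NCS, 15 differed, 11 higher and 4 lower, against 46.5% of all genes and 52.7% of those with a mean of at least 100 reads. Upward calls then made up 36.7% of the members and 22.9% of all genes, and downward calls 13.3% and 23.6%. Of the lincRNAs called, 11 passed in both conditions and in the same direction, which is 91.7% of the 12 and 73.3% of the 15, beside 76.1% and 74.8% over all genes tested. The comparisons share no library, and the fold changes of the 30 members correlated with r = 0.86 (Spearman 0.82), beside 0.85 over all tested genes, which were not matched in read count.

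**Figure D4:**
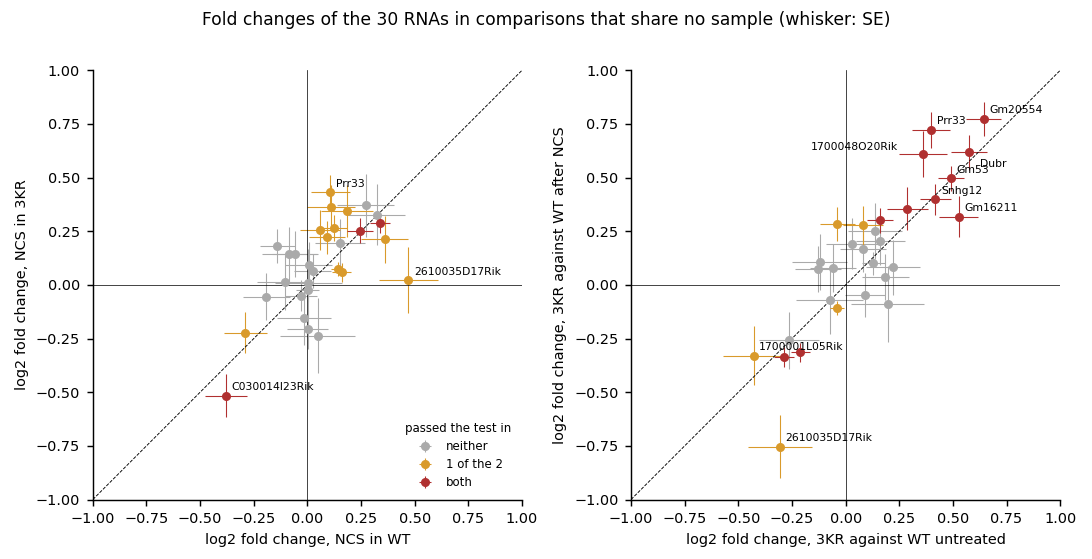
Log2 fold changes of the 30 lincRNAs, NCS in wild-type against NCS in 3KR MEFs on the left and 3KR against WT untreated against the same after NCS on the right, with whiskers for the SE and the dashed line marking equal values. The right panel lies closer to the dashed line (r = 0.86) than the left (r = 0.63), and 2610035D17Rik lies off it in both.

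Gm20554 had the largest difference. It is a single-exon RNA on chr13:72626213-72628564 (GRCm38, minus strand) that starts 256 bp from Irx2, a homeobox gene of embryonic patterning, and runs away from it. It was at 257, 280 and 257 reads in untreated wild-type and at 441, 380 and 421 in untreated 3KR MEFs, and after NCS at 276, 288 and 283 against 462, 475 and 511. All 3KR libraries lay above all wild-type libraries, by 0.64 (SE 0.08, adjusted p = 4.98e-07) and 0.77 (SE 0.08, adjusted p = 2.31e-08) on the log2 scale. Irx2 itself, at a mean of 52.9 reads, was higher in 3KR by 0.93 (SE 0.21, adjusted p = 0.00071) and 1.10 (SE 0.21, adjusted p = 0.00012).

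Dubr, an RNA that silences the adjacent Dppa2 during muscle differentiation, lies on chr16:50719294-50732773 (minus strand). It was at 387, 356 and 330 reads in untreated wild-type and 552, 515 and 543 in untreated 3KR cells, higher by 0.58 (SE 0.08, adjusted p = 3.27e-06), and by 0.62 (SE 0.08, adjusted p = 1.33e-06) after NCS. Gm53 was at 679, 743 and 722 against 1024, 1002 and 992 reads, a difference of 0.49 (SE 0.06, adjusted p = 3.45e-07), and of 0.50 (SE 0.06, adjusted p = 2.00e-07) after NCS. Prr33 was higher in 3KR by 0.40 (SE 0.09, adjusted p = 0.000633) and 0.72 (SE 0.09, adjusted p = 2.03e-07). Gm16211 was higher by 0.53 (SE 0.09, adjusted p = 4.14e-05) and 0.32 (SE 0.09, adjusted p = 0.00738), and 1700048O20Rik by 0.36 (SE 0.11, adjusted p = 0.00981) and 0.61 (SE 0.11, adjusted p = 5.23e-05). Gm14005 was higher by 0.16 (SE 0.06, adjusted p = 0.0334) and 0.30 (SE 0.06, adjusted p = 0.000209), while Bcl2l11 was lower in 3KR by 0.37 (SE 0.06) and 0.47 (SE 0.06).

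Fewer lincRNAs were lower in 3KR MEFs. Zfp469 fell by 0.29 (SE 0.05, adjusted p = 1.33e-05) and 0.34 (SE 0.04, adjusted p = 1.26e-06), and 1810058I24Rik fell by 0.21 (SE 0.04, adjusted p = 0.000377) and 0.31 (SE 0.04, adjusted p = 3.18e-06). Zfp469 thus rose with NCS and was lower in 3KR, with all 3KR libraries below all wild-type libraries of the same treatment. 2610035D17Rik was at 163 ± 10.8 reads in wild-type and 97.1 ± 16 in 3KR MEFs after NCS (SD, n = 3), a difference of −0.75 (SE 0.14, adjusted p = 0.000153), and of −0.30 (SE 0.15, adjusted p = 0.101) without treatment. 1700001L05Rik fell by 0.43 without treatment (SE 0.14, adjusted p = 0.0165) and had −0.33 (SE 0.14, adjusted p = 0.0516) after NCS. Cyrano fell by 0.11 in NCS-treated 3KR MEFs (SE 0.03, adjusted p = 0.00978), with 5392, 5054 and 5069 reads against 5533, 5614 and 5580.

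Several genotype calls depended on single libraries. For 1700001L05Rik the adjusted p was 0.0616 without WT untreated replicate 1 and 0.0604 without 3KR untreated replicate 1. For Cyrano after NCS it was 0.0612 without 3KR NCS replicate 2 and 0.0578 without 3KR NCS replicate 3. For Gm14005 untreated it was 0.0542 to 0.136 without WT untreated replicates 2 or 3 or 3KR untreated replicates 2 or 3. For Gm38399 untreated it was 0.0552 without WT untreated replicate 2 and 0.0501 without 3KR untreated replicate 1, and for 1700048O20Rik untreated 0.0558 without WT untreated replicate 2. Epb41l4aos after NCS had 0.0702 to 0.111 without WT NCS replicate 1, 3KR NCS replicate 1 or 3KR NCS replicate 3. With both wild-type replicate 3 libraries left out, 13 members differed untreated and 19 after NCS, beside 48.8% and 49.7% of all genes tested in the same fit. Tmem250-ps and A530017D24Rik were gained and Gm14005 was lost untreated, and Tmem250-ps, Gm14230, Snhg20 and 1700001L05Rik were gained after NCS.

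The members with a small RNA inside them were read as a group of 4. The snoRNA hosts Snhg12, Snhg20 and Epb41l4aos and the microRNA host Mir17hg are the members held by the host lists, from 24 and 21 symbols of which 11 and 9 were in the files, most of the others with another biotype. Snhg12 was at 1545, 1582 and 1286 reads in untreated wild-type and 1916, 2016 and 1999 in untreated 3KR MEFs. It was higher in 3KR by 0.42 (SE 0.07, adjusted p = 3.49e-05) and by 0.40 after NCS (SE 0.07, adjusted p = 7.65e-05), with wild-type replicate 3 lowest in both treatments and a difference of 0.34 without the replicate 3 libraries. NCS left it at −0.03 (SE 0.07) and −0.05 (SE 0.07). Snhg20, which contains the small Cajal body RNA Gm26083 and miR-6516, rose with NCS in 3KR by 0.35 (SE 0.12, adjusted p = 0.0329) and had 0.18 (SE 0.12, adjusted p = 0.296) in wild-type. Epb41l4aos, which contains the snoRNA Gm23639, rose in 3KR by 0.26 (SE 0.09, adjusted p = 0.0374), its libraries being at 320, 306 and 311 reads without and at 408, 315 and 391 with NCS, so that the groups overlapped. The calls of Snhg20 and Epb41l4aos after NCS in 3KR were each lost in 5 of the 6 fits that leave out a 3KR library.

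Mir17hg, whose cluster is printed above, was at 183, 227 and 203 reads in untreated wild-type and at 177, 188 and 198 in untreated 3KR MEFs, with overlapping groups. Its log2 difference between genotypes was −0.12 (SE 0.13, 95% CI −0.39 to 0.15) and after NCS 0.11 (SE 0.13, 95% CI −0.16 to 0.37), and its NCS changes were −0.08 (SE 0.13) and 0.14 (SE 0.13). None passed the test (adjusted p = 0.448 to 0.69), and differences within these intervals cannot be set apart from 0. These reads count the host transcript and say nothing of the level of the mature microRNAs printed above. The list of p53-linked and damage-linked non-coding RNAs held no member of the set. Of its 17 symbols, 9 were in the files. Of these, 7 had another biotype and could not be members at any level, and 2 were lincRNAs below the minimum.

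Many lincRNAs start close to a coding gene, and transcription from such paired start sites often runs in both directions. The nearest protein-coding start site lay within 10 kb for 9 of the 30 members and over 100 kb away for 5, with a median of 17.6 kb in GENCODE M21. For 7 members it lay within 1 kb on the opposite strand, which is called divergent here. These pairs were Gm16001 with Ogfod2 (33 bp apart), Gm14230 with Tgif2 (115 bp), Gm5113 with Zfp146 (125 bp), 5031425E22Rik with Kmt2e (172 bp), 5033430I15Rik with Atxn1 (245 bp), Gm20554 with Irx2 and AI480526 with Setd1b (527 bp). Across the 7 pairs, the fold changes of lincRNA and neighbour correlated with r = 0.71 and 0.88 for NCS in wild-type and 3KR MEFs and with r = 0.96 and 0.90 between genotypes. In the 19 other pairs with a tested neighbour, r was 0.22, 0.30, 0.21 and 0.16 in the same order. Without Gm20554 and Irx2, the other 6 divergent pairs gave r = 0.74, 0.89, 0.80 and 0.71. The signs agreed in 4, 4, 4 and 6 of the 7 divergent pairs and in 8, 10, 11 and 10 of the 19 others. Both partners were called in 1, 0, 1 and 2 of the 7 and in 2, 3, 4 and 6 of the 19. The 19 include neighbours with few reads, such as Slc13a4 (mean 7.83, SE 0.47 to 0.70), so the correlations of the 2 sets are not like for like. These are descriptions over few pairs.

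**Figure D5:**
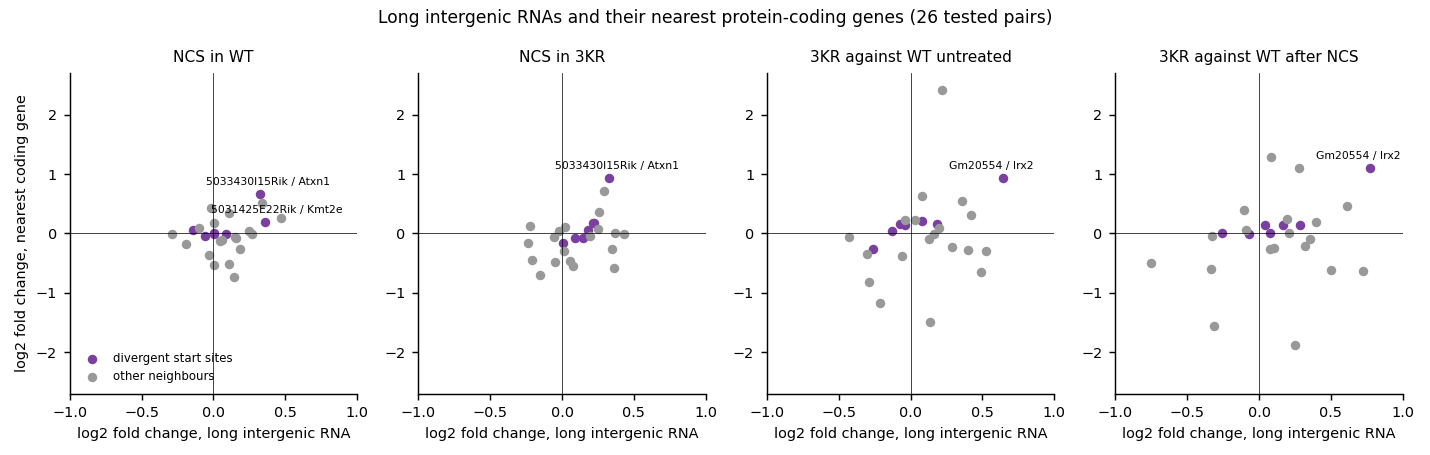
Log2 fold change of each lincRNA on the horizontal and of its nearest protein-coding gene on the vertical axis in the 4 comparisons, for the 26 pairs with a tested neighbour, with the 7 divergent pairs in purple. Gm20554 and Irx2 lie at the upper right in both genotype panels, and 5033430I15Rik and Atxn1 at the top of the divergent pairs for NCS.

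Atxn1, which encodes a transcriptional co-repressor, rose with NCS by 0.67 (SE 0.07, adjusted p = 1.7e-07) in wild-type and by 0.93 (SE 0.07, adjusted p = 8.7e-10) in 3KR MEFs. Its divergent partner 5033430I15Rik was at 114, 94.3 and 115 reads without and 123, 145 and 138 with NCS in wild-type cells, and at 84.7, 95.7 and 90.9 without and 125, 105 and 110 with NCS in 3KR cells. The treated libraries lay above the untreated ones in both genotypes, but the log2 fold changes of 0.32 (SE 0.13, adjusted p = 0.0766) and 0.33 (SE 0.14, adjusted p = 0.0843) did not pass. Kmt2e, a chromatin regulator of the mixed-lineage leukemia family, rose with NCS by 0.19 (SE 0.04, adjusted p = 0.00087) and 0.18 (SE 0.04, adjusted p = 0.0012), beside 0.36 and 0.21 for 5031425E22Rik.

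At larger distances some pairs were called in opposite directions. Hoxb9, whose start lies 20.4 kb from that of Gm53, was lower in 3KR by 0.66 (SE 0.05, adjusted p = 5.2e-11) and 0.61 (SE 0.05, adjusted p = 2.0e-10), while Gm53 was higher in 3KR. Nusap1, a mitotic spindle gene 24 kb from Cyrano, had log2 fold changes of −0.73 and −0.55 with NCS and 0.22 and 0.40 between genotypes, all called, and Cyrano moved the other way wherever it was called. Zfpm1, 12.6 kb from Zfp469 and a cofactor of GATA factors, moved with it in all 4 comparisons, by 0.51 and 0.72 with NCS and by −0.82 and −0.61 between genotypes. Csrp1 beside Gm38399 had −0.23 (adjusted p = 4.8e-05) in untreated 3KR MEFs, where Gm38399 was higher. Sstr2, 418 kb from 2610035D17Rik, was lower in 3KR by 0.35 (adjusted p = 0.015) and 0.51 (adjusted p = 0.00063), and Sec14l1, 39.2 kb from Snhg20, fell with NCS by 0.27 and 0.26. Epb41l4a, whose start lies 212 kb from that of Epb41l4aos, was higher in 3KR by 0.63 (SE 0.12) untreated and 1.10 (SE 0.12) after NCS and rose with NCS in 3KR by 0.36 (SE 0.11), and Epb41l4aos was higher in the latter 2 of these. Setd1b, a histone methyltransferase gene beside AI480526, was higher in 3KR by 0.14 in both conditions. Zfp979, 28.3 kb from Gm16211, fell with NCS by 0.53 and 0.44 and was lower in untreated 3KR MEFs by 0.30, where Gm16211 was higher. Cp, the ceruloplasmin gene 62.2 kb from 4632415L05Rik, had log2 fold changes of −1.497 and −1.88 between genotypes, and Lix1, 451 kb from BC002059, had 2.42 and 1.29 at a mean of 34.7 reads, all called, while neither lincRNA passed. Arfgap3 beside 1700001L05Rik passed in none of the 4 comparisons, Slc13a4, Fam198a, Rab42 and Tnnt3 beside 1810058I24Rik, 1700048O20Rik, Snhg12 and Prr33 averaged 7.83 to 55.8 reads, and Upk2, Ccdc54 and Spdye4c beside C030014I23Rik, Dubr and Gm14005 were not tested.

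RefSeq promoter windows (GRCm38.p6, 250 bases before to 50 after the start) were found for 15 members. They held 1 to 34 CG dinucleotides with a median of 20, against a median of 7 over all 32851 windows, and 13 of the 15 lay above that median. The 32851 windows were not limited to expressed genes. The windows of Gm20554, Gm5113 and Gm16001 overlap that of their divergent coding neighbour by 174 to 245 bases. The window of Gm20554 (chr13:72628515-72628814, minus strand) is printed with its 24 CG dinucleotides in capitals, because 245 of its bases also lie in the window of Irx2.
Gm20554: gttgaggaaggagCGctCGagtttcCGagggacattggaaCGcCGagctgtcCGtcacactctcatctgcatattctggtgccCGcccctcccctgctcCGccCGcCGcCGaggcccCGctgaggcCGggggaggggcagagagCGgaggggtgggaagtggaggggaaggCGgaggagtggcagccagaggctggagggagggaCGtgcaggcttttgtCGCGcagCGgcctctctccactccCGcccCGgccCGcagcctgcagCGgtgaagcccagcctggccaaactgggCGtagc

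The window of 2610035D17Rik (chr11:113201789-113202088, minus strand), the lincRNA with the largest rise in wild-type MEFs, held 13 CG dinucleotides and was the only member window with a TATA box (TATAAA on either strand), which lies 33 bases before the start and is in capitals.
2610035D17Rik: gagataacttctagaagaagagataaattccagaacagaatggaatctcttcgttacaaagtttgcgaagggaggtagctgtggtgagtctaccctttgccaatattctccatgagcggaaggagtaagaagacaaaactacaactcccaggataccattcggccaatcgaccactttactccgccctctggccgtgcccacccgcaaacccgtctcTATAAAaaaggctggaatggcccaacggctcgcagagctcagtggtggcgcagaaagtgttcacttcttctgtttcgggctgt

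TATAAA was found in 13.6% of all windows. An E2F motif (TTTCCCGC, TTTGGCGC, TTTCGCGC or TTTGCCGC, both strands) was found in 2.26% of all windows and in 1 of the 15, that of Gm5113, whose log2 differences between genotypes were −0.13 (SE 0.11) and 0.07 (SE 0.11). The p53 decamer motif was found in 8.36% of all windows and in those of Gm5113 and Snhg20. The cAMP response element (TGACGTCA) and the interferon-stimulated response element were in 1.79% and 3.44% of all windows and in none of the 15. A match says only that these letters occur in the window.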

How the data were processed

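The authors deposited 1 file of raw read counts per library, without normalization. Per the labels, the libraries were stranded mRNA libraries, and the submitters' processing notes name TopHat, HTSeq, DESeq and mm9, with versions and the strand setting not given in the sources used here. Since the annotation used here is GENCODE M21 (GRCm38), positions are GRCm38 and none were converted. Of 37991 identifiers, 32919 are in M21.

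Genes were filtered with filterByExpr (15327 remained) and tested with edgeR 4.0.16 (R 4.3.3) by the quasi-likelihood F test after TMM normalization, with 1 coefficient per group. Two-sided p were adjusted over all tested genes by Benjamini-Hochberg at 0.05. Normalized reads are counts divided by DESeq2 1.42.0 size factors. Intervals are 95%. Copies were searched with BLAST 2.17.0 (98% identity over 100 bp). The fit was tested on simulated data.

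The members and lists were chosen with earlier results of these data known. Named members are the 5 lowest p per direction among those called in each comparison, 3 per direction for the difference in response, the 10 highest levels, role list members and those next to the minimum. Others were named after their values were seen.

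Same-numbered wild-type libraries deviated together (r = 0.323, 0.318 and 0.526), so numbers were taken to pair untreated and NCS samples there, although numbers 1 and 2 were crossed nearly as closely (0.293). The reported fit has no term for this pairing, which enters only as the replicate block among the alternatives. For Zfp469 and NCS in wild-type, edgeR gave an adjusted p of 3.33e-06 in the reported fit and 1.03e-11 with the block. 3KR libraries (r = 0.0116, 0.0785 and 0.0218) and genotypes were not paired. Alternatives were DESeq2 size factors and Wald test, other filters, only the samples compared, the replicate block, each library left out, and subsets of members.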

Additional observations from a re-analysis of the deposited data

How the results depend on the processing

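With both wild-type replicate 3 libraries left out, an alternative chosen after seeing the data, 6.67% of the members (AI480526 and 1810058I24Rik) passed for the difference in NCS response, against 0% in the reported fit, while 23.3% and 36.7% passed for NCS in wild-type and 3KR and 43.3% and 63.3% between genotypes. Over all genes tested in that fit, 11.8% passed for the difference, 32.7% and 39.7% for NCS and 48.8% and 49.7% between genotypes. Leaving out 1 library at a time gave 20% to 26.7% of members called for NCS in wild-type, 16.7% to 30% for NCS in 3KR, 30% to 40% between untreated genotypes, 43.3% to 60% after NCS and 0% to 3.33% for the difference in response. The other alternatives stayed within 1.5 times the reported share. They gave 23.1% to 38.9% for NCS in wild-type, 23.3% to 38.9% in 3KR, 32% to 55.6% and 44% to 72.2% between genotypes, the highest being members with a mean of at least 200 reads. Shares over all genes are not given for these alternatives or for the fits without 1 library. In the reported fit the share also rose with depth over all genes. Between genotypes it was 45.7% untreated and 46.5% after NCS, and 51.3% and 52.7% with a mean of at least 100 reads. With the replicate block, 26.7% passed for NCS in wild-type, where the numbers were taken to pair, and the block changed no call there. In the comparisons where samples share only a number, the block gave 33.3%, 40%, 50% and 0% of members called. Of 498 refits of 36 named fold changes, none changed direction, 483 kept their side of the threshold, 12 lost and 3 gained a call. The 36 were picked by lowest p in the reported fit, which favours stable calls, so these counts do not describe the other calls. Among those left out were Gm20554, Epb41l4aos and Snhg20 for NCS in 3KR and 5031425E22Rik for NCS in wild-type, each lost in several fits. Members that RefSeq does not list as coding or pseudogene, a subset chosen after seeing the data, gave 23.1%, 30.8%, 38.5%, 50% and 0%. Depth limits the weaker members, with SEs of up to 0.18 in the comparisons between 2 groups.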
